A study of Mus musculus with 12 samples.

Results

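Host cell marker transcripts were followed in RNA from sorted mouse lymphoma cells. The set holds 37 genes that are commonly used as markers of cells other than B cells, matched by symbol, out of 56748 gene identifiers in each deposited count file. It comprises 16 T cell markers, 5 natural killer (NK) and cytotoxic markers, 11 macrophage and myeloid markers, 2 dendritic cell markers and 3 stromal markers. Members were separated by their level in cultured lymphoma cells, at a mean of 1 CPM (counts scaled to library size by the trimmed mean of M values, TMM). By that rule 9 members were expressed in culture, namely Lck, Cd2, Csf1r, Mrc1, Itgam, Cd68, Tyrobp, Zbtb46 and Cst3, and 28 were not. The member just above the threshold was Tyrobp, at a culture mean of 2.00 CPM, and the member just below it was Cd247, at 0.663 CPM.

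Eµ-myc lymphoma is a malignancy of B lineage cells in mice whose Myc oncogene is driven by the enhancer of the immunoglobulin heavy chain. The labels describe all 12 libraries as B cells of an Eµ-myc lymphoma line and do not say whether the line is 1 clone. In 4 libraries the cells came straight from culture. In another 4 they were sorted from lymph nodes of C57BL/6J mice on day 11 after injection, having spread through lymphatic vessels (lymphatic 1 to 4), and in the last 4 on day 18, having spread through the blood (hematogenous 1 to 4). Route and day change together and cannot be told apart. The labels give neither the sorting marker nor the gate, also give lymph node as tissue for the cells from culture, and do not say that replicates were separate animals or cultures, so p-values measure the spread between these libraries, which may be technical.

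A T cell recognises antigen through the αβ receptor, whose constant parts are encoded by Trac, Trbc1 and Trbc2, and which signals through the CD3 chains and the ζ chain encoded by Cd247. The coreceptors CD4 and CD8 bind MHC molecules and carry the kinase Lck. Macrophages and other myeloid cells make lysozyme (Lyz2) and the complement component C1q, while NK cells and cytotoxic T cells store granzymes in granules. All of these cells share the lymph node with B cells, so bulk RNA of sorted cells can hold transcripts of several cell types. In bulk RNA, fewer cells of a type and less RNA per cell cannot be told apart.

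Assigned counts ranged from 5655422 to 12738568 in culture, from 12399951 to 25302016 in the lymphatic group and from 5286775 to 12444690 in the hematogenous group, and no pair of replicates agreed within sampling noise. One library stood apart, lymphatic 4: 13.2% of its reads aligned to more than 1 place, the highest share of any library, and ribosomal protein genes took 16.0% of its counts against 7.61% to 9.88% in the other 11. Many results that rest on it are given with and without it, but the fit with no filter on low counts was not repeated without it. B cell identity genes were high in every library, except for Ms4a1, which averaged 0.788 CPM in culture. Its means were 17.2 CPM in the lymphatic and 78.8 CPM in the hematogenous group. Ighm, encoding the µ heavy chain, averaged 3160 CPM in culture, 3681 CPM in the lymphatic group and 3970 CPM in the hematogenous group. The summed level of 10 B cell identity genes was 5744 to 6109 CPM in culture, 5777 to 6896 in the lymphatic group and 7443 to 8064 in the hematogenous group. A total of 13535 genes passed the filter on low counts and were tested with edgeR's quasi-likelihood test.

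Trbc1 and Trbc2 are shown first because a read can be given to 1 of these near-identical genes only where they differ. Both lie on mouse chromosome 6, and their coding parts in the GENCODE transcripts of build GRCm38 are identical at 488 of 518 aligned positions (94.2%), with an unbroken identical run of 259 bases. The stretch with most differences, positions 446 to 505 of the alignment counted from the first coding base, is printed with the 11 differing bases in capitals.
Trbc1: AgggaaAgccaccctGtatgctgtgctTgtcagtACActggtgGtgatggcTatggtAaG
Trbc2: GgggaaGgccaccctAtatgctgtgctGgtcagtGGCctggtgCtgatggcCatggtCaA
Of all windows of the read length, 120 bases, 143 of 393 in the Trbc1 transcript (36.4%) and 143 of 573 in the Trbc2 transcript also occur in the other gene's transcript. How reads from such windows were counted is not given in the sources used here, so the separate Trbc1 and Trbc2 values are uncertain. Of the other members, Itgam (73.5%), Cd247 (5.2%) and Col3a1 (0.4%) had shared windows.

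Of the 28 markers under 1 CPM in culture, 2 had no count in the lymphatic group (Col3a1 and Pdpn) and 5 had none in the hematogenous group (those genes and Gzmb, Ncr1 and Col1a1), while the others were detected after both routes. Gzmb, Ncr1 and Col1a1 had only 6, 6 and 7 lymphatic counts. The TMM-scaled library sizes summed to 70328310 in the lymphatic and 39821788 in the hematogenous group, so no difference between routes is read from these genes. Of the 28 markers, 16 had no count in any culture library, 4 had 1 to 3 counts in all of culture, and the highest, Cd247, had 23. The summed level of the 28 was 1.04 to 3.46 CPM in culture, 46.0, 88.5, 84.2 and 177 CPM in the lymphatic and 24.1, 41.2, 32.0 and 19.4 CPM in the hematogenous libraries, in order of their numbers. Every lymphatic library was thus above every hematogenous one, and hematogenous 4 was the lowest of the 8. Since culture values chose these members, their direction against culture is fixed by the choice, and their values against culture are given as descriptions.

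**Figure D1:**
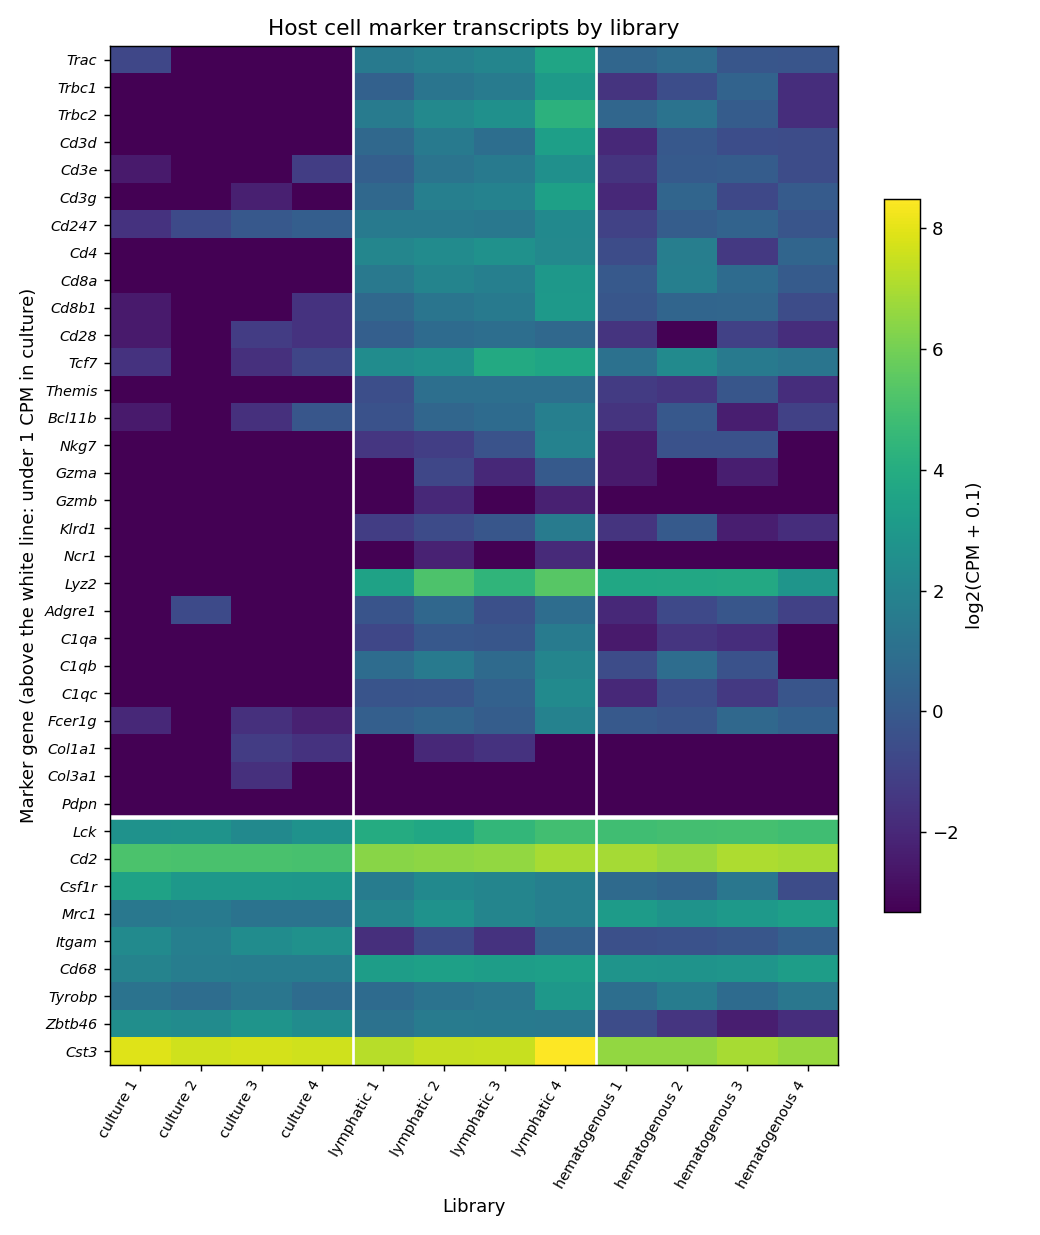
Level of each of the 37 marker genes (rows) in each of the 12 libraries (columns), as log2(CPM + 0.1), with the 28 markers under 1 CPM in culture above the white line. The upper block is dark in culture and brightest in lymphatic 4, while the lower block, with Cst3 and Cd2 brightest, has signal in culture.

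The constant genes of the T cell receptor had almost no counts in culture. Trac, the α constant gene, was at 0.467, 0, 0 and 0 CPM in culture, 2.77, 3.43, 4.10 and 12.1 CPM in the lymphatic libraries, taken from 1 to 4 here and throughout, and 1.36, 1.77, 0.783 and 0.760 CPM in the hematogenous ones. Trbc2, a β constant gene, had no culture count and was at 2.91, 4.63, 5.99 and 18.8 CPM in the lymphatic group and 1.36, 2.19, 0.978 and 0.190 CPM in the hematogenous group. For both genes all lymphatic libraries lay above all hematogenous ones, and lymphatic 4 was above the other 3 lymphatic libraries together. Trbc1, the other β constant gene, had no culture count either, and its lymphatic values of 1.15, 2.31, 2.92 and 8.66 CPM overlapped its hematogenous values of 0.241, 0.589, 1.27 and 0.190 CPM. Against a culture level set at 3 counts over the group, Trbc2 was at least 98.9-fold higher in the lymphatic and at least 16.5-fold higher in the hematogenous group, and Trbc1 at least 46.1-fold and 7.35-fold. Without lymphatic 4 the lymphatic bounds were 54.6-fold for Trbc2 and 26.003-fold for Trbc1.

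The choice of members used no lymph node values, but the filter on low counts did: Trac, Trbc1 and Trbc2 reached it in all 4 lymphatic and in only 2, 1 and 3 hematogenous libraries, so they were tested because of their lymphatic levels. Within that limit, each of these constant genes was called higher in the lymphatic group in edgeR's quasi-likelihood test with Benjamini-Hochberg adjustment. The log2 difference was 2.20 ± 0.576 (SE, adjusted p = 0.0148) for Trac, and 1.47 (adjusted p = 0.0141) without lymphatic 4. For Trbc2 it was 2.65 ± 0.648 (adjusted p = 0.0145), and 1.77 (adjusted p = 0.00614) without lymphatic 4. Trbc1 differed by 2.63 ± 0.711 (adjusted p = 0.0228), and by 1.80 (adjusted p = 0.0183) without lymphatic 4. The size of each difference thus depended on lymphatic 4, and its call did not. Calls were lost without a hematogenous library for Trac (without hematogenous 3, adjusted p = 0.0511) and Trbc1 (without hematogenous 1, 2 or 4, adjusted p = 0.0798, 0.0629 and 0.0615).

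The CD3 chains, which carry the receptor's signal into the cell, followed the same order of groups. Cd3d had no culture count and was at 1.49, 2.71, 1.81 and 10.1 CPM in the lymphatic and 0.161, 0.842, 0.587 and 0.570 CPM in the hematogenous group. Cd3e was at 0.0778, 0, 0 and 0.346 CPM in culture, 1.08, 2.23, 2.76 and 6.02 CPM in the lymphatic group and 0.241, 0.926, 0.978 and 0.570 CPM in the hematogenous group. Cd3g had a single count in culture (0.107 CPM in culture 3) and was at 1.49, 3.31, 3.71 and 10.5 CPM in the lymphatic and 0.161, 1.35, 0.489 and 0.950 CPM in the hematogenous group. Each chain separated the routes without overlap, with lymphatic 4 highest and lymphatic 1 lowest of its group. The culture count of Cd3g gives a ratio of 176 for lymphatic over culture, with an exact 95% counting interval of 31.4 to 6987, and of 105.9 (18.7 to 4209) without lymphatic 4.

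Cd247, encoding the ζ chain, was the member with most counts in culture among those under the threshold, at 0.233, 0.521, 0.860 and 1.04 CPM. It was at 2.71, 2.79, 2.52 and 4.72 CPM in the lymphatic group, above the 0.401, 1.01, 1.27 and 0.760 CPM of the hematogenous group, where its values overlapped those of culture. These signalling chains too reached the filter in all 4 lymphatic and in only 1 (Cd3d) or 2 (Cd3e, Cd3g and Cd247) hematogenous libraries. In edgeR's quasi-likelihood test between the routes each was called higher in the lymphatic group: Cd3d by 2.90 ± 0.726 on the log2 scale (adjusted p = 0.0160), Cd3e by 2.14 ± 0.587 (adjusted p = 0.0189), Cd3g by 2.72 ± 0.637 (adjusted p = 0.00794) and Cd247 by 1.88 ± 0.412 (adjusted p = 0.00542). Without lymphatic 4 the differences were 1.92, 1.55, 1.98 and 1.62, and each was still called (adjusted p = 0.00586, 0.0234, 0.00600 and 0.00437). Without hematogenous 1, Cd3d (adjusted p = 0.0585) and Cd3e (adjusted p = 0.0723) lost their calls.

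Both coreceptors were present. Cd4, the coreceptor of helper T cells, had no culture count and was at 4.13, 5.10, 6.15 and 4.67 CPM in the lymphatic and 0.562, 3.20, 0.293 and 1.33 CPM in the hematogenous group. Here the lymphatic libraries were close together, lymphatic 3 was highest, and hematogenous 2 stood above the other hematogenous libraries. Cd8a, encoding a chain of the coreceptor of cytotoxic T cells, also had no culture count, and its lymphatic values of 2.64, 3.91, 3.31 and 7.81 CPM overlapped its hematogenous values of 0.883, 3.37, 1.66 and 0.950 CPM. Cd8b1, encoding the other CD8 chain, was at 0.0778, 0, 0 and 0.231 CPM in culture, 1.49, 2.31, 2.76 and 7.93 CPM in the lymphatic group and 0.803, 1.35, 1.37 and 0.570 CPM in the hematogenous group, so the routes separated narrowly, lymphatic 1 lying just above hematogenous 3. Against the 3-count level of culture, Cd4 was at least 60.7-fold higher in the lymphatic and at least 16.8-fold higher in the hematogenous group, and Cd8a at least 55.2-fold and 22.4-fold. The lymphatic bounds without lymphatic 4 were 62.0-fold for Cd4 and 41.6-fold for Cd8a.

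Cd4 and Cd8b1 reached the filter in all 4 lymphatic and 2 hematogenous libraries, and Cd8a in all 8. Cd4 was called higher in the lymphatic than in the hematogenous group by 1.87 ± 0.537 on the log2 scale (edgeR adjusted p = 0.0298), and Cd8b1 by 1.77 ± 0.526 (adjusted p = 0.0278). The Cd8a difference of 1.32 ± 0.475 did not pass (adjusted p = 0.0701), although it did without hematogenous 2 (1.90, adjusted p = 0.0227). Without lymphatic 4 the differences were 1.89 for Cd4 (adjusted p = 0.0129), 1.02 for Cd8b1 (adjusted p = 0.0487) and 0.88 for Cd8a (adjusted p = 0.112). Without hematogenous 2 the Cd4 difference was 2.94. The Cd4 call was lost without lymphatic 3, hematogenous 1, 3 or 4 (adjusted p = 0.0592, 0.0952, 0.0607 and 0.0706), and the Cd8b1 call without any 1 hematogenous library (adjusted p between 0.05003 and 0.0920). The ratio of Cd8a to Cd4 was 0.639, 0.766, 0.538 and 1.67 in the lymphatic libraries and 1.57, 1.05, 5.67 and 0.714 in the hematogenous ones, so it ranged widely within both groups and the groups overlapped.

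Cd28, the costimulatory receptor of T cells, did not have its highest level in lymphatic 4. Its level was 0.0778, 0, 0.323 and 0.231 CPM in culture, 1.08, 1.64, 1.81 and 1.46 CPM in the lymphatic group and 0.241, 0, 0.391 and 0.190 CPM in the hematogenous group. All lymphatic libraries lay above the other 8, while the hematogenous ones overlapped culture. It reached the filter in the 4 lymphatic libraries alone, and was called higher than in the hematogenous group by 2.83 ± 0.564 on the log2 scale (edgeR adjusted p = 0.00314), with the same 2.83 without lymphatic 4.

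Of the nuclear regulators of T cell development, Tcf7, encoding the transcription factor TCF-1, had the highest CPM. It was at 0.233, 0, 0.215 and 0.461 CPM in culture, 5.28, 6.06, 14.4 and 12.3 CPM in the lymphatic group and 2.01, 4.88, 2.74 and 2.28 CPM in the hematogenous group. The 3 groups did not overlap, and lymphatic 3, not lymphatic 4, was the highest library. The difference between routes was 1.65 ± 0.391 on the log2 scale (edgeR adjusted p = 0.00870) and 1.47 without lymphatic 4. Bcl11b, encoding a zinc finger factor of T cell commitment, was at 0.0778, 0, 0.215 and 0.807 CPM in culture, 0.676, 1.40, 1.66 and 3.26 CPM in the lymphatic group and 0.241, 0.842, 0.0978 and 0.380 CPM in the hematogenous group, with all 3 groups overlapping. Its difference between routes, 2.11 ± 0.686 (adjusted p = 0.0411), lost its call without lymphatic 4 (1.61, adjusted p = 0.0614), without lymphatic 3 (adjusted p = 0.0570), without culture 3 (adjusted p = 0.0569), and without hematogenous 1, 3 or 4 (adjusted p = 0.130, 0.114 and 0.0841). Themis, encoding a regulator of T cell receptor signalling in the thymus, had no culture count, was at 0.609, 1.87, 1.89 and 1.86 CPM in the lymphatic group and 0.321, 0.253, 0.783 and 0.190 CPM in the hematogenous group, and did not pass the filter on low counts. Only lymphatic 1 of the lymphatic libraries reached down among the hematogenous values.

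**Figure D2:**
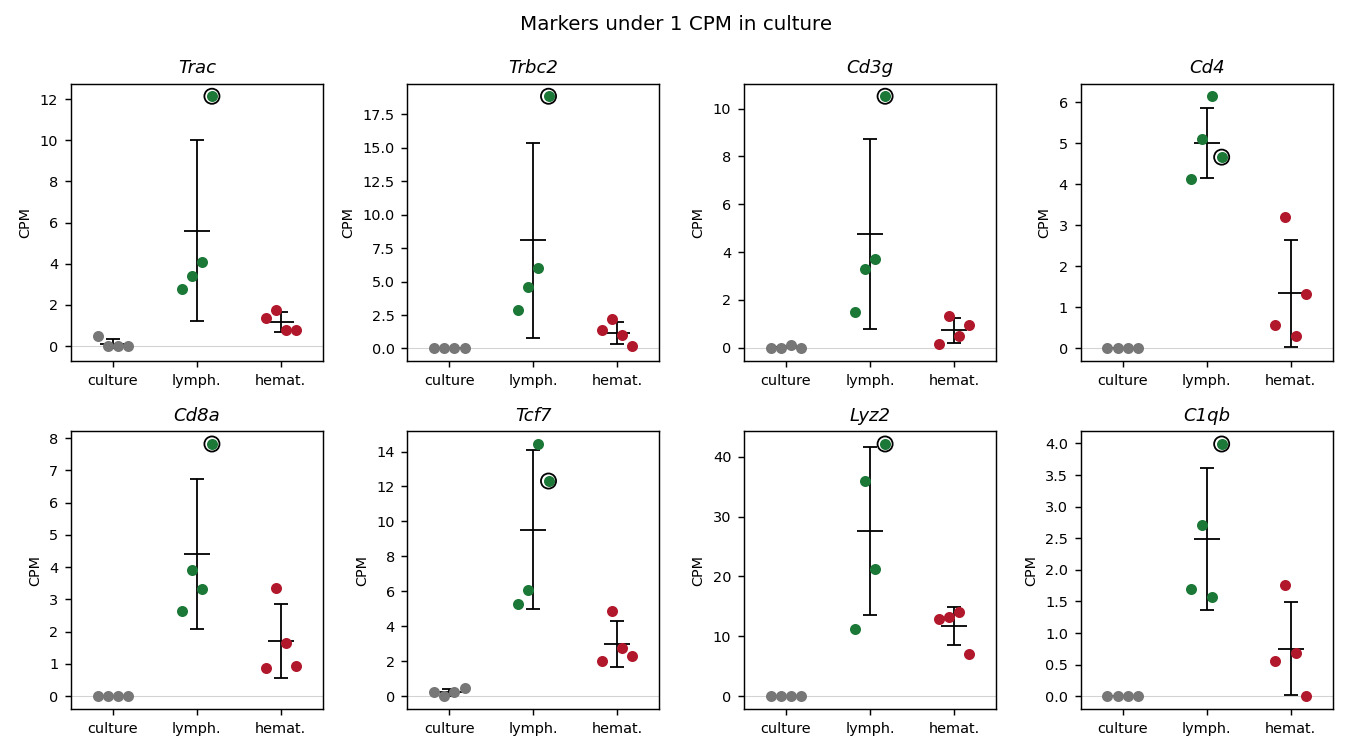
CPM of 8 markers under 1 CPM in culture (Trac, Trbc2, Cd3g, Cd4, Cd8a, Tcf7, Lyz2 and C1qb), 1 point per library, with bars for the mean ± SD of 4 libraries and a ring around lymphatic 4. The ringed library is the highest for Trac, Trbc2, Cd3g, Cd8a, Lyz2 and C1qb, and not for Cd4 or Tcf7.

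NK and cytotoxic markers were at the limit of what these libraries could show. Nkg7, encoding a protein of cytotoxic granules, had no culture count and was at 0.271, 0.359, 0.710 and 3.65 CPM in the lymphatic group and 0.0803, 0.673, 0.685 and 0 CPM in the hematogenous group. Klrd1, encoding the NK receptor chain CD94, had no culture count and was at 0.338, 0.558, 0.789 and 2.92 CPM in the lymphatic and 0.241, 0.926, 0.0978 and 0.190 CPM in the hematogenous group. In both genes lymphatic 4 was far above the other lymphatic libraries, which overlapped the hematogenous ones. Gzma, encoding granzyme A, reached at most 0.899 CPM, and Gzmb, encoding granzyme B, and Ncr1, encoding the NK receptor NKp46, reached at most 0.160 and 0.169 CPM and had no hematogenous count. The summed level of the 5 genes was 0.609 to 7.76 CPM in the lymphatic group and 0.190 to 1.60 CPM in the hematogenous group. None of the 5 passed the filter. Where no filter was applied, edgeR gave adjusted p = 0.0421 for Nkg7 between the routes and 0.0707 for Klrd1.

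Among the myeloid markers under 1 CPM in culture, Lyz2, encoding the lysozyme of macrophages and granulocytes, had the highest level of all 28 genes. It had no count in culture and was at 11.2, 35.9, 21.3 and 42.1 CPM in the lymphatic group and at 12.8, 13.2, 13.99 and 7.03 CPM in the hematogenous group. Lymphatic 1 lay among the hematogenous libraries, so the routes overlapped, and hematogenous 4 was the lowest. Against the 3-count level of culture, Lyz2 was at least 361-fold higher in the lymphatic and at least 152-fold higher in the hematogenous group. The lymphatic bound without lymphatic 4 was 309.9-fold. Scaled to CPM per kilobase of transcript, so that genes can be compared, Lyz2 averaged 21.0 in the lymphatic group, against 11.7 for Trbc2 and 6.00 for Trac, and 8.94 in the hematogenous group, against 1.71 for Trbc2 and 1.25 for Trac. Without lymphatic 4 the lymphatic means were 17.3 for Lyz2, 6.52 for Trbc2 and 3.67 for Trac. The CPM of Lyz2 divided by the summed CPM of Trac, Trbc1 and Trbc2 was 1.63, 3.46, 1.64 and 1.06 in the lymphatic group and 4.32, 2.91, 4.61 and 6.17 in the hematogenous group, overlapping through lymphatic 2 and hematogenous 2.

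The C1q genes, whose products start the classical complement pathway and are made by tissue macrophages, had no culture count. C1qa was at 0.473, 0.838, 0.789 and 2.87 CPM in the lymphatic group and 0.0803, 0.253, 0.196 and 0 CPM in the hematogenous group, with no overlap. C1qb was at 1.69, 2.71, 1.58 and 3.99 CPM in the lymphatic and 0.562, 1.77, 0.685 and 0 CPM in the hematogenous group. C1qc was at 0.744, 0.758, 1.18 and 4.83 CPM in the lymphatic and 0.161, 0.589, 0.293 and 0.760 CPM in the hematogenous group. The summed C1q level was 2.91 to 11.7 CPM in the lymphatic and 0.760 to 2.61 CPM in the hematogenous group, so that the sum, unlike C1qb and C1qc alone, separated the routes.

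Fcer1g, encoding the signalling chain shared by several Fc receptors, was at 0.156, 0, 0.215 and 0.115 CPM in culture, 1.08, 1.36, 1.03 and 3.65 CPM in the lymphatic group and 0.883, 0.758, 1.47 and 1.14 CPM in the hematogenous group. It separated the lymph node libraries from culture but not the routes from each other. Adgre1, encoding the macrophage surface protein F4/80, was at 0, 0.521, 0 and 0 CPM in culture, 0.744, 1.44, 0.631 and 1.74 CPM in the lymphatic group and 0.161, 0.505, 0.783 and 0.380 CPM in the hematogenous group, where it overlapped both others. From its few culture counts the ratio to culture was 14.9 (exact 95% counting interval 4.94 to 73.7) in the lymphatic and 5.51 (1.61 to 29.2) in the hematogenous group. The lymphatic ratio without lymphatic 4 was 12.8 (4.15 to 63.8).

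Between the routes, 1 of the 3 tested myeloid markers under 1 CPM in culture was called higher in the lymphatic group, where 11.4% of all tested genes were. By edgeR's quasi-likelihood test this was Lyz2, by 1.21 ± 0.371 on the log2 scale (adjusted p = 0.0386) and by 0.93 (adjusted p = 0.0425) without lymphatic 4. That call was lost without lymphatic 2 (adjusted p = 0.0759) and without any 1 hematogenous library (adjusted p between 0.0676 and 0.0994). C1qb (1.58 ± 0.581, adjusted p = 0.0744) and Fcer1g (0.77 ± 0.452, adjusted p = 0.234) did not pass, and C1qb did without hematogenous 2 (2.37, adjusted p = 0.0271). Without lymphatic 4 the differences were 1.25 (adjusted p = 0.0897) and 0.16 (adjusted p = 0.765). These 2 genes reached the filter in all 4 lymphatic and in only 1 (C1qb) or 3 (Fcer1g) hematogenous libraries. C1qb was thus tested because of its lymphatic levels, and its passes are no support for a difference. Adgre1, C1qa and C1qc did not pass the filter. Where no filter was applied, edgeR gave adjusted p = 0.129 for Adgre1, 0.000303 for C1qa (log2 difference 2.99) and 0.00104 for C1qc (2.15). That fit gave a smaller p to C1qb as well (adjusted p = 0.00531).

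Stromal markers were near 0 in every group. Col1a1, encoding a chain of type I collagen, reached at most 0.323 CPM in culture, 0.237 CPM in the lymphatic group and no count in the hematogenous group. Col3a1, encoding type III collagen, had counts in culture 3 alone, at 0.215 CPM. Pdpn, encoding podoplanin of lymph node fibroblasts and lymphatic endothelium, had no count in any of the 12 libraries. With 3 counts over a group as the limit, this allows up to 0.0820 CPM in culture, 0.0427 CPM in the lymphatic and 0.0753 CPM in the hematogenous group.

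Of these 28 markers, 16 passed the filter on low counts, and all 16 were called higher in the lymphatic group than in culture, where 13.4% of the 13535 tested genes were called higher. In the hematogenous group 12 of the 16 were called higher than in culture, against 13.9% of tested genes. Nothing is read from these counts, because the members were split by their culture values. Between the routes 13 of the 16 were called higher in the lymphatic group, where 11.4% of tested genes were. Their median log2 difference was 2.00, beside 0.0322 over all tested genes. These values describe the 16 and are no support for a difference, because 12 of them reached the filter in all 4 lymphatic and in fewer hematogenous libraries. Of all 28, with no filter, 11 had every lymphatic library above every hematogenous one, a separation seen in 5.74% of the 33232 genes with a count, and none had the reverse, seen in 5.95%. Those shares include genes too low for the filter. Among the 16 tested, 10 had the first separation and none the reverse, where 11.5% and 13.1% of the 13535 tested genes did. The limit set by the filter holds for these 10.

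**Figure D3:**
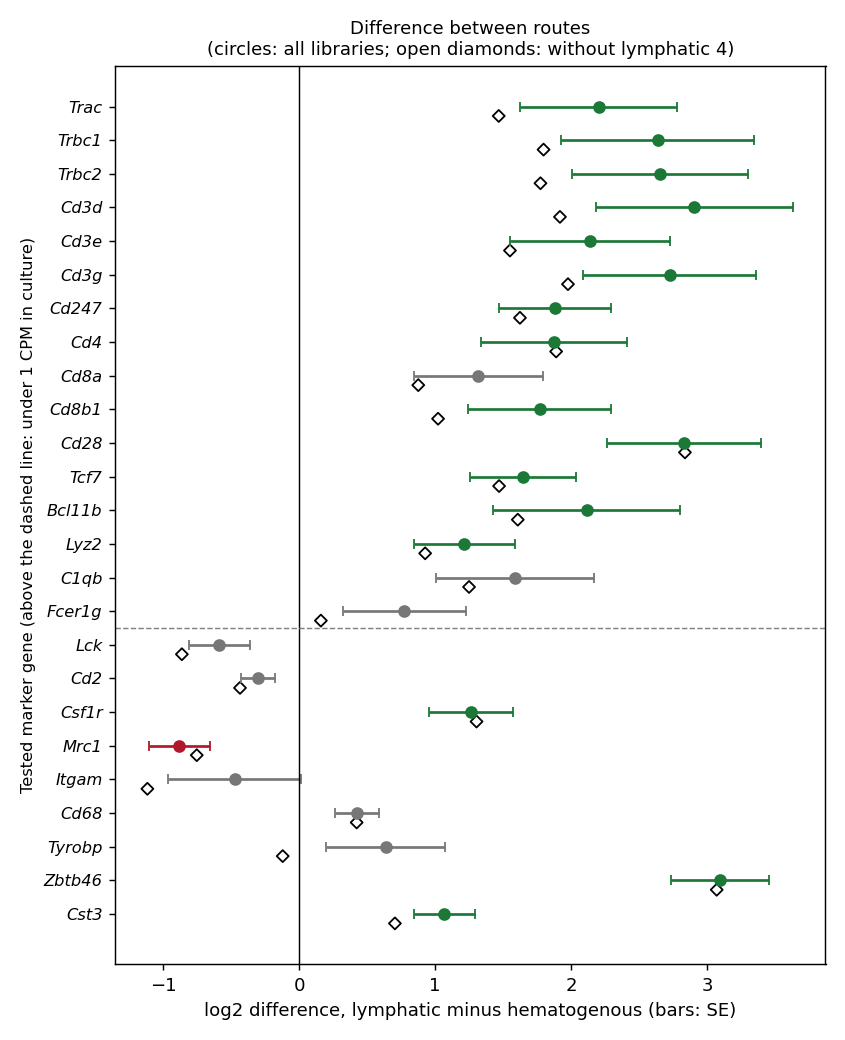
Log2 difference between lymphatic and hematogenous libraries for the 25 tested markers, with SE bars; green marks genes called higher in the lymphatic group, red the 1 called lower (Mrc1), grey those not called, and open diamonds the difference without lymphatic 4. Above the dashed line, for genes under 1 CPM in culture, the circles lie to the right of 0, and most diamonds lie nearer to 0 than their circles.

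Lymphatic 4 was the highest of the 12 libraries for 20 of these 28 markers (74.1% of the 27 with a count), whereas it was the highest for 28.3% of all tested genes. Lymphatic 3 was the highest for 4, namely Cd4, Cd28, Tcf7 and Themis. The 14 T cell members among them summed to 29.5, 43.7, 55.8 and 110.2 CPM in the lymphatic group and to 8.99, 22.6, 13.7 and 9.88 CPM in the hematogenous group. All lymphatic libraries were above all hematogenous ones without lymphatic 4 as well. The 6 myeloid members among them summed to 15.9, 43.0, 26.5 and 59.2 CPM and to 14.7, 17.1, 17.4 and 9.31 CPM, with lymphatic 1 among the hematogenous libraries. Set against the lymphoma's own receptor, the CPM per kilobase of Cd3d, Cd3e and Cd3g together came to at most 0.0469% of that of Cd79a and Cd79b, the signalling chains of the B cell receptor, in culture. The same share was 0.521%, 1.30%, 1.02% and 2.14% in the lymphatic libraries and 0.0475%, 0.289%, 0.170% and 0.211% in the hematogenous libraries. It is a share of transcripts per length, not of cells.

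The 9 markers expressed in culture behaved differently from one another. For these the culture values set the split and did not fix a direction. Comparisons with culture still use the values that set the split, and only the comparison between the routes is independent of it. In the lymphatic group 4 were called higher than in culture (Lck, Cd2, Mrc1 and Cd68), 3 lower (Csf1r, Itgam and Zbtb46), and 2 were not called (Tyrobp and Cst3), where 13.4% of tested genes were called higher and 13.0% lower. In the hematogenous group the same 4 were called higher, Csf1r, Itgam, Zbtb46 and Cst3 were called lower, and Tyrobp was not called, against 13.9% of tested genes in each direction. Both comparisons use the same culture libraries.

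Lck and Cd2 are T cell genes by reputation that these cultured lymphoma cells already transcribed. Lck, encoding the kinase bound to CD4 and CD8, was at 6.30, 6.60, 4.73 and 6.45 CPM in culture, 15.4, 12.8, 22.6 and 30.3 CPM in the lymphatic group and 29.1, 31.1, 32.3 and 29.1 CPM in the hematogenous group. Cd2, encoding an adhesion receptor of lymphocytes, was at 35.3, 34.1, 34.3 and 33.0 CPM in culture, 83.4, 88.4, 93.4 and 120.3 CPM in the lymphatic group and 120.2, 101.6, 129.8 and 124 CPM in the hematogenous group. Every lymph node library was above every culture library for both genes, and lymphatic 4 alone of the lymphatic libraries lay among the hematogenous ones. Their group means were highest in the hematogenous group, whereas those of Trac and the CD3 genes were highest in the lymphatic group.

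Lck rose over culture by 1.75 ± 0.241 on the log2 scale in the lymphatic group (edgeR adjusted p = 0.000119) and by 2.34 ± 0.244 in the hematogenous group (adjusted p = 6.68e-06). Cd2 rose by 1.496 ± 0.128 (adjusted p = 1.75e-06) and 1.80 ± 0.130 (adjusted p = 2.13e-07). Between the routes neither passed with all libraries, at −0.58 ± 0.222 for Lck (adjusted p = 0.0731) and −0.30 ± 0.124 for Cd2 (adjusted p = 0.0950). Without lymphatic 4 both were called lower in the lymphatic group, Lck at −0.86 (adjusted p = 0.00117) and Cd2 at −0.43 (adjusted p = 0.00163). In CPM per kilobase Cd2 averaged 29.6 in culture, 83.6 in the lymphatic and 103.1 in the hematogenous group, and Lck 2.76, 9.29 and 13.9.

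Csf1r, Itgam and Zbtb46 went the other way, from culture downwards. Csf1r, encoding the receptor for macrophage colony-stimulating factor, was at 11.1, 7.82, 7.74 and 7.49 CPM in culture, 2.98, 4.71, 4.02 and 3.32 CPM in the lymphatic group and 1.61, 1.35, 2.45 and 0.570 CPM in the hematogenous group. Zbtb46, encoding a transcription factor of classical dendritic cells, was at 5.52, 5.04, 6.77 and 5.30 CPM in culture, 2.097, 2.95, 2.68 and 2.64 CPM in the lymphatic group and 0.562, 0.253, 0.0978 and 0.190 CPM in the hematogenous group. For both genes the 3 groups were separate, in the order culture, lymphatic, hematogenous. Itgam, encoding CD11b of myeloid cells, was at 4.98, 3.30, 5.16 and 6.11 CPM in culture, 0.203, 0.518, 0.237 and 1.18 CPM in the lymphatic group and 0.642, 0.673, 0.783 and 1.14 CPM in the hematogenous group. All lymph node libraries were below all culture libraries, and the routes overlapped.

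Csf1r fell from culture to the lymphatic group by 1.19 ± 0.275 on the log2 scale (edgeR adjusted p = 0.00580) and differed by −2.45 ± 0.308 in the hematogenous group (adjusted p = 3.67e-05). The Zbtb46 differences were −1.12 ± 0.261 (adjusted p = 0.00596) and −4.21 ± 0.355 (adjusted p = 9.12e-07), the latter the most negative of any tested member. Those of Itgam were −3.13 ± 0.425 (adjusted p = 0.000108) and −2.66 ± 0.440 (adjusted p = 0.000405), and 73.5% of its windows of read length are shared with another annotated gene. Between the routes Csf1r was called higher in the lymphatic group by 1.26 ± 0.307 (adjusted p = 0.00969) and Zbtb46 by 3.09 ± 0.360 (adjusted p = 9.34e-05), with 1.30 and 3.07 without lymphatic 4. Itgam was not called, at −0.47 ± 0.490 (adjusted p = 0.515).

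Mrc1 and Cd68 were higher in lymph node libraries of both routes than in culture. Mrc1, encoding the mannose receptor CD206 of macrophages, was at 2.57, 2.78, 2.15 and 2.19 CPM in culture, 4.06, 6.34, 4.10 and 3.32 CPM in the lymphatic group and 8.83, 6.48, 8.02 and 9.88 CPM in the hematogenous group. It was the 1 member of the 37 with every hematogenous library above every lymphatic one. Cd68, encoding a lysosomal protein abundant in macrophages, was at 3.81, 3.13, 3.01 and 3.00 CPM in culture, 9.54, 10.3, 9.54 and 9.89 CPM in the lymphatic group and 6.74, 6.48, 7.04 and 9.31 CPM in the hematogenous group. Its lymphatic libraries lay close together and just above the highest hematogenous one.

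Mrc1 rose over culture by 0.89 ± 0.240 on the log2 scale in the lymphatic group (edgeR adjusted p = 0.0140) and by 1.77 ± 0.242 in the hematogenous group (adjusted p = 7.93e-05). Cd68 rose by 1.59 ± 0.173 (adjusted p = 1.59e-05) and 1.17 ± 0.177 (adjusted p = 0.000192). Between the routes Mrc1 was called lower in the lymphatic group, at −0.88 ± 0.222 (adjusted p = 0.0121), and the Cd68 difference of 0.42 ± 0.162 did not pass (adjusted p = 0.0757). The Cd68 difference was called in 3 of 19 alternative fits, among them the edgeR fit without hematogenous 4 (adjusted p = 0.0401). Mrc1 and Cd68 did not share the order of libraries seen for Lyz2: lymphatic 4 had the lowest Mrc1 level of its group.

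Cst3, encoding the protease inhibitor cystatin C and abundant in dendritic cells, had the highest level of all members in culture, at 240.3, 197, 210.0 and 195 CPM. It was at 150.2, 175, 179 and 357 CPM in the lymphatic group and 94.1, 94.0, 123 and 99.7 CPM in the hematogenous group. Lymphatic 1 to 3 lay between hematogenous and culture levels, and lymphatic 4 lay above all culture libraries. Cst3 fell from culture to the hematogenous group by 1.04 ± 0.226 on the log2 scale (edgeR adjusted p = 0.00315). The lymphatic difference from culture was 0.03 ± 0.222 (adjusted p = 0.933), and without lymphatic 4 it was −0.33 and was called (adjusted p = 0.0230). Between the routes it was called higher in the lymphatic group, by 1.07 ± 0.225 (adjusted p = 0.00432) and by 0.70 (adjusted p = 0.000131) without lymphatic 4.

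Tyrobp, encoding the adaptor DAP12 of myeloid and NK receptors, was at 2.18, 1.74, 2.36 and 1.73 CPM in culture, 1.62, 2.15, 2.44 and 7.70 CPM in the lymphatic group and 1.85, 3.03, 1.66 and 2.47 CPM in the hematogenous group. Apart from lymphatic 4, the 3 groups covered 1 range. No comparison passed edgeR's test: adjusted p = 0.213 and 0.857 for the lymphatic and the hematogenous group against culture, and 0.311 between the routes. That last difference was 0.64 ± 0.436 with all libraries and −0.12 without lymphatic 4.

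Between the routes 3 of these 9 were called higher in the lymphatic group (Csf1r, Zbtb46 and Cst3) and 1 lower (Mrc1), where 11.4% of tested genes were called higher and 10.9% lower. Their median log2 difference was 0.42. Counted without a test, 4 of the 9 had every lymphatic library above every hematogenous one (Csf1r, Cd68, Zbtb46 and Cst3), as did 11.5% of the 13535 tested genes, and Mrc1 had the reverse, as did 13.1%.

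**Figure D4:**
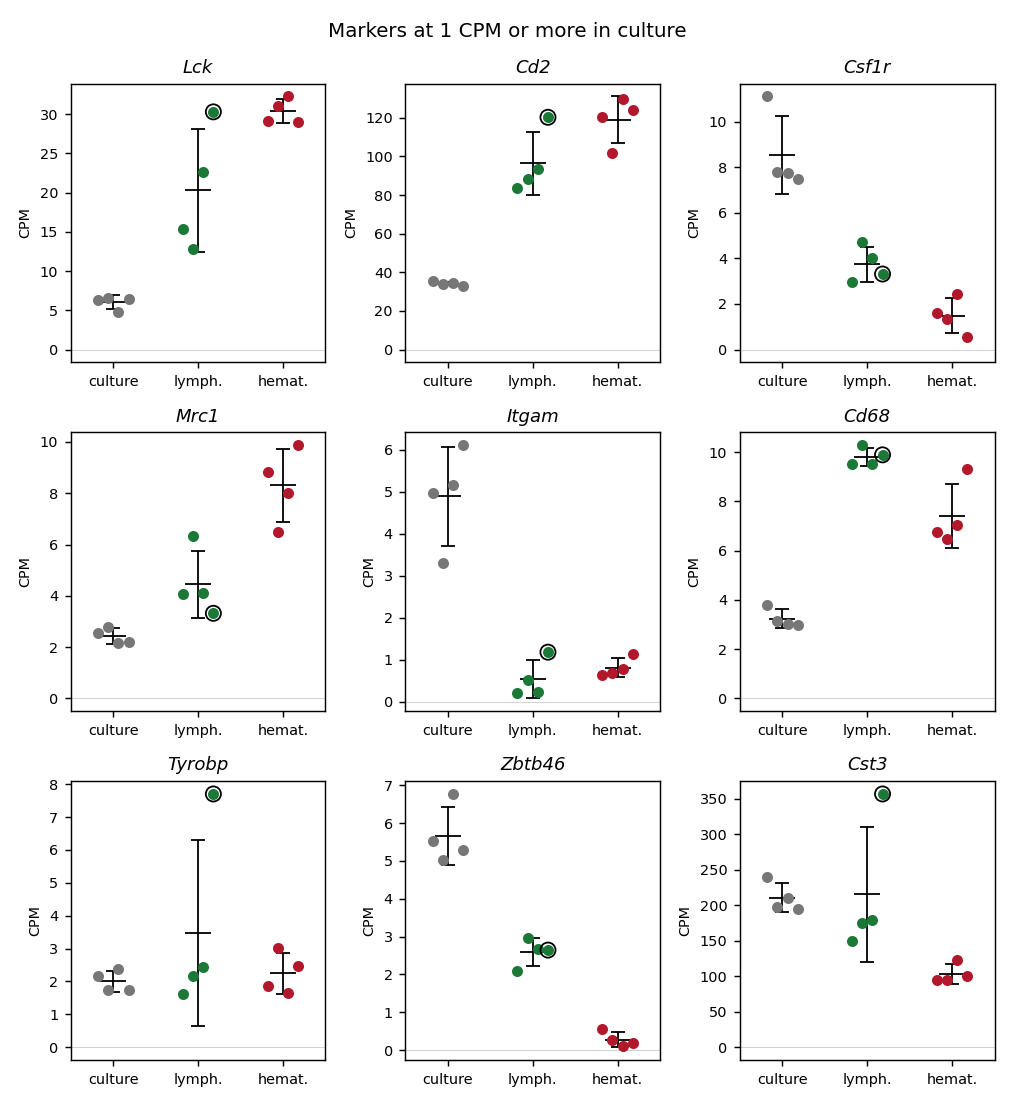
CPM of the 9 markers at 1 CPM or more in culture, 1 point per library, with bars for the mean ± SD of 4 libraries and a ring around lymphatic 4. Lck, Cd2, Mrc1 and Cd68 are above culture in every lymph node library, Csf1r, Itgam and Zbtb46 are below it, and Cst3 and Tyrobp are high in the ringed library.

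Another 137 genes on 9 lists of cell type markers were read in the same libraries. Of 23 other T cell markers, 13 were tested, of which 6 were called higher in the lymphatic than in the hematogenous group and 1 lower, where 11.4% and 10.9% of all tested genes were, and 6 of the 13 reached the filter in all 4 lymphatic and fewer hematogenous libraries. Lat, encoding an adaptor of T cell receptor signalling, was at 1.56, 1.74, 0.752 and 3.00 CPM in culture, 2.30, 2.83, 5.36 and 13.8 CPM in the lymphatic and 1.36, 2.104, 1.96 and 2.09 CPM in the hematogenous group, and rose by 1.71 ± 0.535 on the log2 scale (edgeR adjusted p = 0.0357), but by 0.88 (adjusted p = 0.0816) without lymphatic 4. The shares of all tested genes called without lymphatic 4 are not given here. Without that library 14 of the list were tested, of which 5 were called higher and 1 lower. The 1 called lower was Il7r, encoding the interleukin 7 receptor, which was also the gene of this list with the highest CPM: it was at 44.1 to 53.0 CPM in culture, 40.1 to 71.3 CPM in the lymphatic group and 53.4 to 174 CPM in the hematogenous group, a difference of −0.94 ± 0.275 (edgeR adjusted p = 0.0259). Lat overlapped between culture and both lymph node groups, and Il7r had its highest mean in the hematogenous group.

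Of 22 other macrophage markers, 10 were tested, and 8 were called higher in the lymphatic than in the hematogenous group, where 11.4% of all tested genes were. Without lymphatic 4, 7 were called higher, and the share of all tested genes in that fit is not given here. Of these 10, 4 reached the filter in all 4 lymphatic and fewer hematogenous libraries. Mpeg1, encoding the pore-forming perforin-2 of phagocytes, was at 0.346 to 1.07 CPM in culture, 38.2, 65.1, 19.1 and 24.3 CPM in the lymphatic group and 18.3, 9.43, 18.0 and 11.0 CPM in the hematogenous group, and rose by 1.36 ± 0.349 on the log2 scale between the routes (edgeR adjusted p = 0.0131). Its highest library was lymphatic 2, not lymphatic 4. Apoe, encoding apolipoprotein E (0.50 ± 0.203, adjusted p = 0.0944), and Ctsd, encoding cathepsin D (0.35 ± 0.210, adjusted p = 0.244), did not pass. The list's summed level was 91.9 to 114 CPM in culture, 109 to 186 CPM in the lymphatic group and 63.6 to 86.6 CPM in the hematogenous group.

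Of 13 other NK markers 3 were tested, of which 1 was called higher in the lymphatic than in the hematogenous group and 1 lower. The shares of all tested genes were 11.4% and 10.9%. Klrb1c, encoding the NK receptor NK1.1, was at 18.6 to 22.7 CPM in culture and at most 0.946 CPM in the lymph node libraries, and differed from culture by −4.74 ± 0.319 on the log2 scale in the lymphatic and −6.29 ± 0.393 in the hematogenous group (edgeR adjusted p = 2.33e-07 and 6.55e-08). Cd244a, encoding the receptor 2B4, was at 3.57 to 4.34 CPM in culture, 7.03 to 9.46 CPM in the lymphatic and 17.3 to 30.8 CPM in the hematogenous group, and was called lower in the lymphatic group (−1.60 ± 0.185, adjusted p = 8.85e-05). Klrb1c was called higher in the lymphatic than in the hematogenous group (1.54 ± 0.479, edgeR adjusted p = 0.0338), and Cd160 was not called (0.88 ± 0.397, adjusted p = 0.128). Klrb1c and Cd244a were thus present in cultured lymphoma cells, as Lck and Cd2 were.

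Few markers of the remaining cell types passed the filter on low counts. None of 14 neutrophil markers was tested, and Csf3r, encoding the receptor for granulocyte colony-stimulating factor, averaged 0.0537 CPM in culture, 0.369 CPM in the lymphatic and 0.235 CPM in the hematogenous group. S100a8, encoding a calcium-binding protein of neutrophils, had no culture count, was at 0, 0, 0.158 and 0 CPM in the lymphatic group and at 0.642, 0.337, 0.489 and 0.760 CPM in the hematogenous group. S100a9, also of this list, averaged 0.106 CPM in the lymphatic and 0.503 CPM in the hematogenous group. Csf3r thus had its higher mean in the lymphatic group, and S100a8 and S100a9 had theirs in the hematogenous group. The summed level of the 14 was 0.156 to 1.04 CPM in culture. It was 0.867 to 1.08 CPM in the lymphatic and 0.842 to 4.09 CPM in the hematogenous group, with medians of 0.946 and 2.56 CPM. None of 17 other stromal markers passed the filter, and their sum was at most 1.84 CPM in culture, 1.60 CPM in the lymphatic and 2.54 CPM in the hematogenous group. The highest of them, Fn1, was at 0.338, 0.279, 0.158 and 0 CPM in the lymphatic group. Its hematogenous values, 1.45, 0.673, 2.05 and 1.14 CPM, were all higher. Without lymphatic 4 it was tested because of its hematogenous levels, its lymphatic and culture values being at most 0.338 and 0.752 CPM. The difference between the routes was then −2.30 (edgeR adjusted p = 0.0124), which is no support for a difference. Acta2, the next highest, went the other way, with means of 0.511 CPM in the lymphatic and 0.297 CPM in the hematogenous group. Of 13 other dendritic markers 3 were tested, and the differences between routes of Flt3, encoding a growth factor receptor, Itgae, encoding the integrin CD103, and Ccr9, encoding a chemokine receptor, were −0.44, 0.74 and 0.61 (edgeR adjusted p = 0.258, 0.216 and 0.457). Of 14 endothelial markers 3 were tested, of which 1 was called higher in the lymphatic than in the hematogenous group and 2 lower. The shares of all tested genes were 11.4% and 10.9%. Pecam1, encoding CD31, was at 72.7 to 78.6 CPM in culture. It was at 79.3 to 114 CPM in the lymphatic and 136 to 163 CPM in the hematogenous group (−0.64 ± 0.120, edgeR adjusted p = 0.00227). Cdh5 was also called lower (−1.35 ± 0.386, edgeR adjusted p = 0.0231). Egfl7 was called higher (0.88 ± 0.288, edgeR adjusted p = 0.0414), but not without lymphatic 4 (0.45, adjusted p = 0.0762). Of 11 erythroid and platelet markers 2 were tested, the β-globin genes Hbb-bt and Hbb-bs, which differed between the routes by 0.27 and 1.16 (edgeR adjusted p = 0.779 and 0.192). Hbb-bs was at 0.156, 0, 0 and 0 CPM in culture, 0.812, 1.24, 4.34 and 6.02 CPM in the lymphatic group and 1.45, 0.505, 1.57 and 2.28 CPM in the hematogenous group, and rose over culture by 5.60 ± 1.006 (edgeR adjusted p = 0.00101) and 4.44 ± 1.114 (adjusted p = 0.00793). Hbb-bt went the other way, from a culture mean of 17.2 CPM to 2.20 and 1.76 CPM. The part of these other cell types in the levels of the 37 markers was not tested.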

How the data were processed

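For each of 12 libraries the authors deposited a file of raw, unnormalized gene counts. Per the labels' protocols, lymphoma cells were sorted and poly(A) RNA was read as stranded, single-end reads of 120 bases. The submitters' processing notes name FastQC 0.11.9, Trimmomatic 0.39, HISAT2 2.1.0, HTSeq 2.0.2 and the build GRCm39. The 5 summary lines without a gene (30.3% to 36.5% of reads) were left out. An older annotation (GENCODE on GRCm38) gave transcript lengths and the symbols of 91.8% of identifiers. All 174 listed names matched.

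The main test was edgeR 4.0.16 (R 4.3.3, limma 3.58.1), a quasi-likelihood F test in 1 fit of all 12 libraries on group with TMM scaling after filterByExpr (9 residual degrees of freedom), two-sided, Benjamini-Hochberg over the 13535 genes tested, at a threshold of 0.05. SE was computed from log2 fold change and F, and is approximate. Scripts were tested on simulated data. CPM are TMM-scaled. Reads carry no molecular identifiers here, so limits of 3 counts and exact Poisson intervals cover counting error only. Alternatives were DESeq2 1.42.0, limma-voom, other scaling, no filter, 8 libraries only, a replicate block and leaving out each library. All 37 members could be named. Of each other list, the 3 genes with the highest mean CPM could, and Cd79a, Cd79b and Ms4a1 were named besides them. Members and lists were chosen with earlier results of these data known.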

Additional observations from a re-analysis of the deposited data

Results flagged for a closer look

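In 54 groups of 4 libraries, for the 31 markers with a mean of 1 CPM or more in some group, a library standing far from the other 3 of its group was found by Dixon's test 14 times, of which 9 were lymphatic 4. Chance alone gives such a library in about 1 of 20 groups, and the markers share libraries, so these cases are not independent. Lymphatic 4 stood high for Trac at 12.1 CPM against 2.77 to 4.10 in the other 3 lymphatic libraries, for Cd3d at 10.1 CPM against 1.49 to 2.71, and for Cd247 at 4.72 CPM against 2.52 to 2.79. It also stood high for Nkg7 at 3.65 CPM against 0.271 to 0.710, for C1qa at 2.87 CPM against 0.473 to 0.838, and for C1qc at 4.83 CPM against 0.744 to 1.18. The same library was high for Fcer1g at 3.65 CPM against 1.03 to 1.36, for Tyrobp at 7.70 CPM against 1.62 to 2.44, and for Cst3 at 357 CPM against 150.2 to 179. It is the library with the highest share of ribosomal protein counts, 16.0%, and the part of that in these levels was not tested.

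The other 5 were single libraries of different groups. Lck was low in culture 3 at 4.73 CPM against 6.30 to 6.60, and Themis in lymphatic 1 at 0.609 CPM against 1.86 to 1.89. Lyz2 was low in hematogenous 4 at 7.03 CPM against 12.8 to 13.99. Csf1r and Cd68 were high in culture 1, at 11.1 CPM against 7.49 to 7.82 and at 3.81 CPM against 3.00 to 3.13.

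Among the markers expressed in culture, 4 differed between the routes when that difference was tested directly with edgeR's quasi-likelihood test: Csf1r by 1.26, Zbtb46 by 3.09 and Cst3 by 1.07 on the log2 scale, higher in the lymphatic group, and Mrc1 by −0.88. Because route and day of collection change together, which of them goes with these differences cannot be told apart.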

How the results depend on the processing

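Of the 17 markers called between the routes, 8 kept their call and direction in all 19 alternatives: Cd3g, Cd247, Cd28, Tcf7, Csf1r, Mrc1, Zbtb46 and Cst3. Among these, Cd3g, Cd247 and Cd28 reached the filter in all 4 lymphatic libraries and in only 2, 2 and 0 hematogenous ones. They were tested because of their lymphatic levels, so their kept calls are no support for a difference. For single genes over the 3 comparisons, 1314 results kept direction and side of the threshold, 62 lost a call, 24 gained one and 10 changed sign. With all libraries, 16 of the 25 tested markers were called higher in the lymphatic than in the hematogenous group and 1 lower. The shares of all tested genes were 11.4% and 10.9%. When 1 library was left out, 9 to 17 markers were called higher and 1 to 3 lower. Lck and Cd2 were the added genes both with library size scaling only (3 lower) and without lymphatic 4, and Lck without a filter (2 lower) and with limma-voom (2 lower). Against culture, 20 to 21 were called higher and 3 to 4 lower in the lymphatic group, and 13 to 18 higher and 4 lower in the hematogenous group, over the same libraries left out. With only the 8 libraries compared, 6 were called higher in the hematogenous group than in culture, 11 markers being tested there. Nothing is read from the counts against culture, because they include the markers chosen for low culture values. The shares of all tested genes called in these alternatives are not given here. The number expressed in culture stayed at 9 without any 1 culture library.

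Sign changes were in differences that were not called with all libraries. Cst3 between lymphatic and culture was −0.0567 with library size only, −0.0304 with the replicate block and −0.0531 with limma-voom. With 1 library left out it ranged from −0.33 (without lymphatic 4) to 0.17. Between hematogenous and culture, Cd28 ranged from −0.26 (without hematogenous 3) to 0.82, Bcl11b from −0.33 (without hematogenous 2) to 1.79 and Tyrobp from −0.0505 (without hematogenous 2) to 0.27. Tyrobp between the routes ranged from −0.12 (without lymphatic 4) to 0.87. Their cause was not tested.

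Same-numbered libraries did not vary together (12 pairs, r −0.181 to 0.0919), so the numbers pair nothing. With the replicate block, 20 markers were called higher and 3 lower in the lymphatic group than in culture, 17 and 4 in the hematogenous group, and 13 and 1 between the routes, where Trbc2, Cd8b1 and Lyz2 lost their calls. The same limits hold for these counts. Of the 37 markers, 12 had too few counts to pass the filter.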
